A study of Mus musculus with 4 samples.

Results

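Broad Snail peaks were the stretches of 2000 bp or more in the list of Snail peaks from the mouse breast cancer line pBl.3G. They were chosen by their own width, end minus start on mm10, and by no other value. There were 1494 of them among 28375 Snail peaks (5.27%), and the other 26881 are called narrower Snail peaks. By the same width only 26 of the 41612 peaks in the Slug list were as broad (0.0625%), and the Slug list serves here as a second readout that the rule did not use.

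The peaks came from chromatin immunoprecipitation followed by sequencing (ChIP-seq), which finds the DNA that a protein was fixed to. The Snail ChIP was made in pBl.3G, labelled mesenchymal with high Snail, with an antibody whose label names Snail and Slug as joint targets. The Slug ChIP was made in pBl.1G, labelled epithelial with high Slug, with a rabbit monoclonal antibody to Slug. Each line also had an input DNA library, not used here. Both lines carry the MMTV-PyMT transgene, an oncogene of polyomavirus, middle T, under a mouse mammary tumour virus promoter active in mammary epithelium. Each ChIP was 1 library with no replicate, and no expression values were used, so the labelled cell states were not checked. Factor, antibody and cell line differed together and cannot be told apart. Sequencing depth is unknown, because the files give positions and scores and no reads.

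Snail (gene Snai1) and Slug (gene Snai2) are zinc finger transcription factors of 1 family. Both bind the E-box CAGGTG and are known as repressors of epithelial genes such as E-cadherin during epithelial-mesenchymal transition (EMT), the switch by which epithelial cells lose their junctions and become motile. A peak caller reports each unbroken stretch of enrichment as a peak, so a broad peak can hold 1 wide zone or several neighbouring sites.

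The broad peaks covered 4.16 Mb, which was 16.2% of the 25.6 Mb under all Snail peaks. Their median width was 2442 bp (quartiles 2176 and 3003 bp), against 688 bp for narrower peaks. Of them 376 reached 3000 bp, 145 reached 4000 bp and 30 reached 6000 bp, and the widest spanned 8765 bp. Their score, a value the authors' peak caller gave each peak, had a median of 599 (quartiles 263 and 977), against 140 (quartiles 74.5 and 517) for narrower peaks. Width and score come from the same library, so these are descriptions. A score under 100 was held by 84 broad peaks (5.62%) and by 10414 narrower peaks (38.7%). Among broad peaks the wider ones did not score higher: Spearman's rho between width and score across peaks was -0.149, against 0.728 among narrower peaks. The median score was 68.7 under 500 bp and reached 707 from 1500 up to 2000 bp. Past the limit it was 650 up to 3000 bp, 552 from there up to 4000 bp and 359 at 4000 bp or more.

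The limit of 2000 bp cut through a continuous range. The 222 peaks less than 100 bp above it had a median score of 746, and the 256 peaks within 100 bp below it had 735. Just inside lay a peak of 2000 bp in the body of Coro7 with a score of 190, a peak of 2001 bp in Dlgap1 with 222 and a peak of 2001 bp whose nearest gene was Nfatc2 with 161. Just outside lay a peak at an end of Mgat5, 1 bp short of the limit, with a score of 735 and 2 of 1998 bp, in Hivep2 with 1129 and at Cuedc2 with 441.

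Sequences are shown for 2 sets of broad peaks, those over known miRNA genes and those with a Slug peak in a promoter that also holds the E-box. A miRNA is a short RNA that lowers its target mRNAs by pairing through its seed. Of 1005 miRNA hairpins in the RefSeq table of GRCm38.p6, 25 lay whole inside 22 broad Snail peaks. A broad peak at chr8:84208465-84212762 (4298 bp, score 297) held Mir23a, Mir27a and Mir24-2, a cluster made from 1 transcript, and contained 1 Slug peak. A peak at chr15:85707200-85710675 (3476 bp, score 543, no Slug peak) held Mirlet7b, of the let-7 family known for repressing growth genes. A peak at chr9:108565876-108568571 (2696 bp, score 892, 1 Slug peak) held Mir191 beside Dalrd3 and Impdh2. The mature sequences from RefSeq follow, 5′ to 3′, with the seed (bases 2 to 8) in capitals, and no seed was shared among the 5.
mmu-miR-23a-3p: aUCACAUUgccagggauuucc
mmu-miR-27a-3p: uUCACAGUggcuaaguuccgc
mmu-miR-24-3p: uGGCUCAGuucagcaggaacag
mmu-let-7b-5p: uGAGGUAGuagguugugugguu
mmu-miR-191-5p: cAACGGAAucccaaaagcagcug

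The promoter window of the RefSeq table runs from 250 bases before to 50 bases after an annotated start. A Slug peak midpoint lay in the window of 32 of the 1273 promoters held whole by broad Snail peaks (2.51%), against 353 of 8546 in narrower peaks (4.13%). Of the 32, 12 had CAGGTG on either strand (read as CAGGTG or CACCTG) in the 250 bases before the start. The examples were chosen after their values were seen: Pfkfb2 and Hexim1 had 2 such motifs each, and Itga3 and Kmt5b lay in the widest broad peaks of the 12. Pfkfb2 encodes an enzyme that sets the level of fructose 2,6-bisphosphate in glycolysis, Hexim1 an inhibitor of the elongation factor P-TEFb, Itga3 the alpha3 chain of a laminin-binding integrin and Kmt5b a histone H4 lysine 20 methyltransferase. Vim, the mesenchymal intermediate filament vimentin, is shown because its promoter lay in a broad peak of 3839 bp with no Slug peak and had neither form of the motif in this stretch. The 250 bases before the start are printed 5′ to 3′ on the gene's strand, from RefSeq on GRCm38.p6, with CAGGTG or CACCTG in capitals. They run over chr1:130715822-130716071 on the minus strand (Pfkfb2), chr11:103116075-103116324 on the plus strand (Hexim1), chr11:95076715-95076964 on the minus strand (Itga3), chr19:3767639-3767888 on the plus strand (Kmt5b) and chr2:13574061-13574310 on the plus strand (Vim).
Pfkfb2: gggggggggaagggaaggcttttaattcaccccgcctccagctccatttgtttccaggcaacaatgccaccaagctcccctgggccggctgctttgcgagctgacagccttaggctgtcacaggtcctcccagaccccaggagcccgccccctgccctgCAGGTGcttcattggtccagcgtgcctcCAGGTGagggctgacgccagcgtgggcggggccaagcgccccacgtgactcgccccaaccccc
Hexim1: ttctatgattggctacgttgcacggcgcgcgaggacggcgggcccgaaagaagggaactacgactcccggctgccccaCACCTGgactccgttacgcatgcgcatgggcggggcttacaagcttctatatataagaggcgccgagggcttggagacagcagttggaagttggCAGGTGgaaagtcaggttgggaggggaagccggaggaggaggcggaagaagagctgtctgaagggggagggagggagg
Itga3: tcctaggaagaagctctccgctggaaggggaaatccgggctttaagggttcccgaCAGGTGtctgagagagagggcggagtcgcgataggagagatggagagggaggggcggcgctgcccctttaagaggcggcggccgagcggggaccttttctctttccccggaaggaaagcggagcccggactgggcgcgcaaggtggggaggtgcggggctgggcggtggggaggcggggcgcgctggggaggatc
Kmt5b: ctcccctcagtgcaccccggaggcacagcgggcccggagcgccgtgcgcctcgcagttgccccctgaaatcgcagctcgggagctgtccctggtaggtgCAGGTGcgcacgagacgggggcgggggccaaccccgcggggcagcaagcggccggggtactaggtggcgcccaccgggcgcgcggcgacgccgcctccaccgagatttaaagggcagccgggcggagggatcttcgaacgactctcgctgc
Vim: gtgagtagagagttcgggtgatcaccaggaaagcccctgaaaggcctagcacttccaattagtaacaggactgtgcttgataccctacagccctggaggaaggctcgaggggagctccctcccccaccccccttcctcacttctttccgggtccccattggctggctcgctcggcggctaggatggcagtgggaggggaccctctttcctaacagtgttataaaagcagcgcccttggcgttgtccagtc
The peak over Pfkfb2 was 2915 bp wide with a score of 1340, that over Hexim1 2436 bp with 621, that over Itga3 5016 bp with 443 and that over Kmt5b 4908 bp with 847. Each of these 4 contained 1 Slug peak, and the Vim peak scored 921. No end of the annotated Pfkfb2 span lay within 1 kb of its peak, so the start used is not at an end of that span. An end of the neighbour Yod1 did lie within 1 kb.

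Across promoters the E-box was not more frequent in broad peaks. CAGGTG on either strand stood in 14.2% of the 1273 windows in broad peaks (95% Wilson interval 12.4 to 16.2%), 16.8% of those in narrower peaks (16.0 to 17.6%), 21.8% of the 22998 windows not whole in a Snail peak, which include partly covered ones, and 20.2% of all 32817. The looser E-box CANNTG, which includes CAGGTG, stood in 58.8% of windows in broad peaks, 60.3% in narrower peaks and 77.5% of those not whole in one. TGANTCA, the letters bound by AP-1 factors, stood in 6.21% of windows in broad peaks (5.01 to 7.67%), 4.27% in narrower peaks (3.86 to 4.72%) and 9.22% of those not whole in one. TATAAA, found in the core of some promoters, stood in 7.86%, 4.91% and 17.2% in that order. It was counted on either strand (as TATAAA or TTTATA) and anywhere in the window. The median GC content was 63.3% in broad peaks, 62.7% in narrower peaks and 49.0% in windows not whole in one, so base composition differed along with motif frequency, and its part in these shares was not tested. A match is only these letters in this window, and a window without one says nothing of the factor. The Wilson intervals here and below cover counting only, since the peaks of 1 library are not replicates, and no test was made over them.

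Broad Snail peaks lay mostly at the ends of genes, 1 of which is the transcription start. The midpoint was within 1 kb of a gene end for 869 of 1494 broad peaks (58.2%, 95% Wilson interval 55.6 to 60.6%), against 42.6% of narrower peaks (42.0 to 43.2%). It lay elsewhere in a gene body for 420 (28.1%) against 34.7% of narrower peaks, and between genes for 205 (13.7%) against 22.7%. By this midpoint rule, the higher share at gene ends did not hold among peaks of like score. At scores of 1000 or more, 81.7% of 355 broad peaks lay at a gene end (77.3 to 85.4%), against 87.2% of narrower peaks (85.9 to 88.4%). From 300 up to 1000 it was 63.3% of 712 broad peaks (59.7 to 66.8%), against 77.9% (76.9 to 78.9%). From 100 up to 300 the shares were 30.3% of 343 and 30.4%, and only under 100 was the broad share the higher, 28.6% of 84 against 17.8%. The 869 broad peaks at gene ends had a median score of 777, those in gene bodies 370 and those between genes 253.

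**Figure D1:**
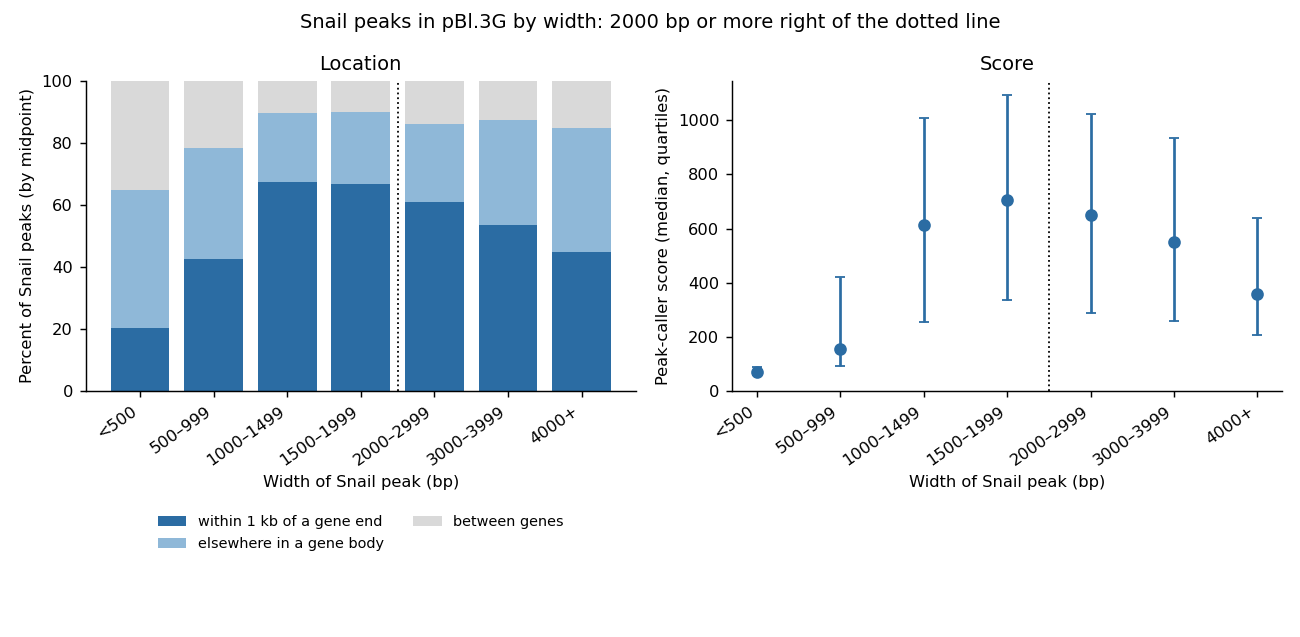
Location by midpoint (left, percent of Snail peaks) and peak-caller score (right, median with quartiles) of Snail peaks in 7 width classes, narrow to wide, with broad peaks right of the dotted line. The share at a gene end was 20.2% under 500 bp, 67.3% from 1000 up to 1500 bp and 44.8% at 4000 bp or more, and the median score was highest from 1500 up to 2000 bp.

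A broad interval can reach more than 1 gene end. At least 1 end lay inside 967 broad peaks (64.7%, 62.3 to 67.1%), against 34.0% of narrower peaks. Among peaks with Snail scores of 100 or more, the shares covering an end were 66.6% and 51.0%. By length this was no excess: broad peaks held 40.9 gene ends per 100 kb, and narrower peaks 53.7. Exactly 2 ends lay in 309 broad peaks and 3 or more in 136 (9.10%), against 198 narrower peaks with 3 or more (0.737%). A whole gene lay inside 157 broad peaks, 228 genes in all, of which 86 were protein-coding, 30 tRNA, 27 lncRNA, 27 miRNA, 27 snoRNA and 15 snRNA genes. Ends of lncRNA genes were covered by 226 broad peaks (15.1%), against 5.40% of narrower peaks, and 90 of the 226 covered no protein-coding end. Away from genes, 51 broad peaks lay over 10 kb and 6 over 50 kb from any gene.

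Where all starts in a peak were of 1 gene and strand, the broad peaks ran longer into the gene than away from it. These 596 broad peaks reached a median of 1081 bp upstream and 1429 bp downstream of the start. Of them, 364 (61.1%, 57.1 to 64.9%) reached further downstream. Some held several starts of their gene, as at E2f3 and Kmt5b, where the distances ran from the most upstream start. Such a choice adds to the downstream reach, and its part in the lean was not tested. The 6810 narrower peaks of this kind reached 425 bp upstream and 521 bp downstream, with 62.8% (61.7 to 64.0%) further downstream, so the lean into the gene was of like size.

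The widest peak, chr19:5739118-5747882 (8765 bp, score 52.7), lay over Ltbp3, which binds latent TGF-beta in the matrix. Its score was close to the lowest in the list, 50. The next, chr13:119595453-119603878 (8426 bp, score 254), lay in the body of Tmem267 and contained 3 Slug peaks. A peak of 8278 bp (score 70.1) lay at Twnk, the mitochondrial DNA helicase, and Lzts2, the only gene with an annotated start in it. Another of 8232 bp (score 88.1) lay at Hjurp, the chaperone that loads the centromeric histone. One of 7656 bp (score 84.3) held Ppp1ca, a catalytic subunit of protein phosphatase 1, with ends of Tbc1d10c and Rad9a. A peak of 7649 bp (score 195) ran from S100a5 over S100a6, both calcium-binding proteins. The peak of 7608 bp (score 154) covered an end of Hmga1, a chromatin protein that bends AT-rich DNA. The only gene with an annotated start in that peak was AI413582. Completing the 10 were a peak of 7272 bp (score 266) whose nearest gene was the pseudogene Vmn1r-ps2, one of 7188 bp (score 232) at Rin1, a Ras effector, and one of 7081 bp (score 109) with 6 gene ends of Loxl3, Mir7040, Htra2 and Aup1. None of the 10 reached the median score of broad peaks, 599.

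The highest scores belonged to other genes. Scores piled up at 3100, a value that 16 broad and 23 narrower peaks reached or passed. Of the 16 broad ones, 6 lay over replication-dependent histone genes, 5 covered small nuclear RNA (snRNA) genes and 5 neither. The highest, 3157, was a peak of 3963 bp over H3c15 and H2ac19 at chr3:96236856-96240818. Histone peaks at 3100 lay over H4c18 and H2ac24, H2bc23 and H2ac23, H3c13 and H2bc18, H1f2, and H2bc6 with H1f4, the last 2 holding linker histone genes. The snRNA peaks included Rnu2-10, a gene of the U2 spliceosomal RNA, and Rnu12, the U12 RNA of the minor spliceosome, lay in a peak of 2276 bp with a score of 2790. The other 5 lay at Rn18s-rs5 (6206 bp), annotated as related to 18S rRNA, at the pseudogenes Gm10222 and Gm10925, at the lncRNA 2700054A10Rik, and near the pseudogenes Gm9637 and Vmn1r-ps2. Lower in the list came Gm20590 with 3092 and Polr2a, the largest subunit of RNA polymerase II, with 2642. Histone, snRNA and rRNA-related genes have near-identical copies. How reads matching several copies were placed is not given in the sources used here, so which copy was bound is uncertain.

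Most replication-dependent histone genes lay under a broad peak. These genes are read only during S phase, to pack new DNA. Of 63 cluster genes, 47 were overlapped by a broad peak and 61 by any Snail peak, and 42 lay whole within broad peaks. Over all protein-coding genes, 5.7% had a broad peak and 51.3% any Snail peak within 1 kb of an end, a rule unlike overlap. The 25 peaks concerned, 20 on chromosome 13 and 5 on chromosome 3, had a median width of 2588 bp and a median score of 2229 (range 347 to 3157). A Slug peak lay in 22 of the 25 (88%, 70.0 to 95.8%), against 25.3% of the other broad peaks, and 13 held 2. It lay in 33.8% of all 355 broad peaks with scores of 1000 or more, and in 9 of 15 narrower Snail peaks over histone genes. Neighbouring histone genes share peaks, so the 47 genes are not independent. Of the 14 broad peaks covering an snRNA end, 8 contained a Slug peak, and their median score was 2302.

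Among gene lists, broad Snail peaks were most frequent at actin and focal adhesion genes and at immediate early genes. Neither list stood clear of the ribosomal protein genes given below. A broad peak came within 1 kb of an end of 1248 of 21887 protein-coding genes (5.7%), any Snail peak of 11237 (51.3%), and 11.1% of the 11237 had a broad one. Of 286 genes in 12 lists of EMT and growth control, 66 had a broad peak (23.1%), and these were 30.7% of the 215 with any Snail peak. Ribosomal protein genes, a list of steadily active genes unrelated to EMT, had a Snail peak at all 30. Of them 11 had a broad peak (36.7%, 21.9 to 54.5%). None of 25 neuronal and none of 25 hepatocyte genes did, which allows up to 13.3% each by the Wilson interval, and each of these lists had any Snail peak at 5 genes. The lists were thus read against both the 5.7% of all genes and the ribosomal list. The intervals of the actin and focal adhesion list (32.1 to 67.9%) and the immediate early list (26.7 to 62.9%) lay above the 5.7%. Both overlapped the interval of the ribosomal list, so neither was set apart from it. Either gene end counted, so a peak given for a listed gene can lie over the start of a neighbour instead.

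**Figure D2:**
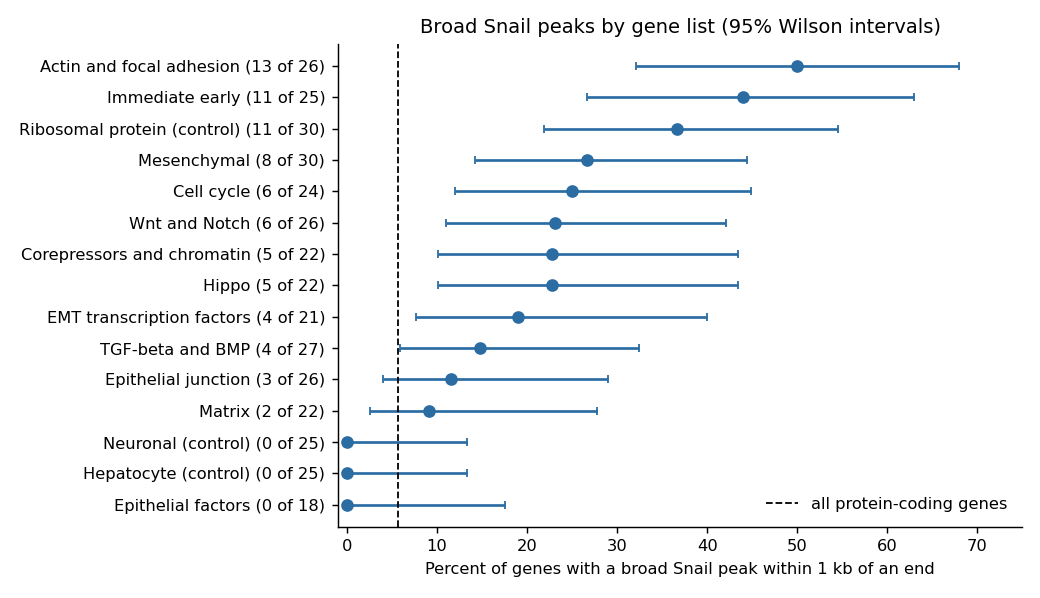
Share of genes with a broad Snail peak within 1 kb of an end (percent, points with 95% Wilson intervals) in 15 gene lists, with the share over all protein-coding genes as a dashed line. The actin and focal adhesion list was highest at 50%, the immediate early list followed at 44%, and 3 lists, the epithelial factors among them, were at 0.

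Actin and focal adhesion genes, which build the contractile cytoskeleton and its anchors, had a broad peak at 13 of 26 (50%, 32.1 to 67.9%) and any Snail peak at 23. The widest, 4911 bp with a score of 214, covered an end of Actb, the beta-actin gene, and contained 1 Slug peak of score 62.2. Myh9, the heavy chain of non-muscle myosin IIA, had a peak of 3784 bp (score 300) that held no Slug peak. The focal adhesion protein zyxin, Zyx, had 2 broad peaks, of 3193 bp (score 720) and 3122 bp (score 223), 1 toward each end of the gene. Actg1 and Pfn1, for gamma-actin and profilin, also had 2 each. The Actg1 peak of 3675 bp covered neither end of Actg1, and the only gene with an annotated start in it was 0610009L18Rik. The other members were Cttn, Tpm1, Actn1, Src, Tpm4, Ilk, Pxn and Lasp1, with widths of 2222 to 3111 bp. The Pxn peak is the one with a score of 3100 that also covers snRNA genes, so it does not speak for Pxn alone. Nor does the Ilk peak speak for Ilk alone, since the only gene with an annotated start in it was Taf10.

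Immediate early genes, which growth factors switch on within minutes, had a broad peak at 11 of 25 (44%, 26.7 to 62.9%) and any Snail peak at 24. The widest lay at Fosl2, a Fos-related AP-1 subunit, at 5234 bp (score 557), with 1 Slug peak, and at Egr3, a zinc finger factor, at 5008 bp (score 551), with none. Further AP-1 genes were Fosl1 (4615 bp, score 376), Junb (4421 bp, score 439) and Jun (4288 bp, score 546), and Jun contained a Slug peak of score 384. The only gene with an annotated start in the Fosl1 peak was its neighbour Ccdc85b, so that peak does not speak for Fosl1 alone. Myc, the growth-driving transcription factor, had peaks of 4362 bp (score 739) and 2121 bp (score 136). Junb lay whole within its peak, as did Ier3 (4223 bp, score 1031) and Ier2 (3528 bp, score 738). Dusp6 and Dusp5, phosphatases that switch off MAP kinases, had peaks of 4126 bp (score 1065) and 2333 bp (score 515), and Klf10 one of 3656 bp (score 1025) with a Slug peak of score 304. All but Dusp5 had a peak of 3528 bp or more.

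**Figure D3:**
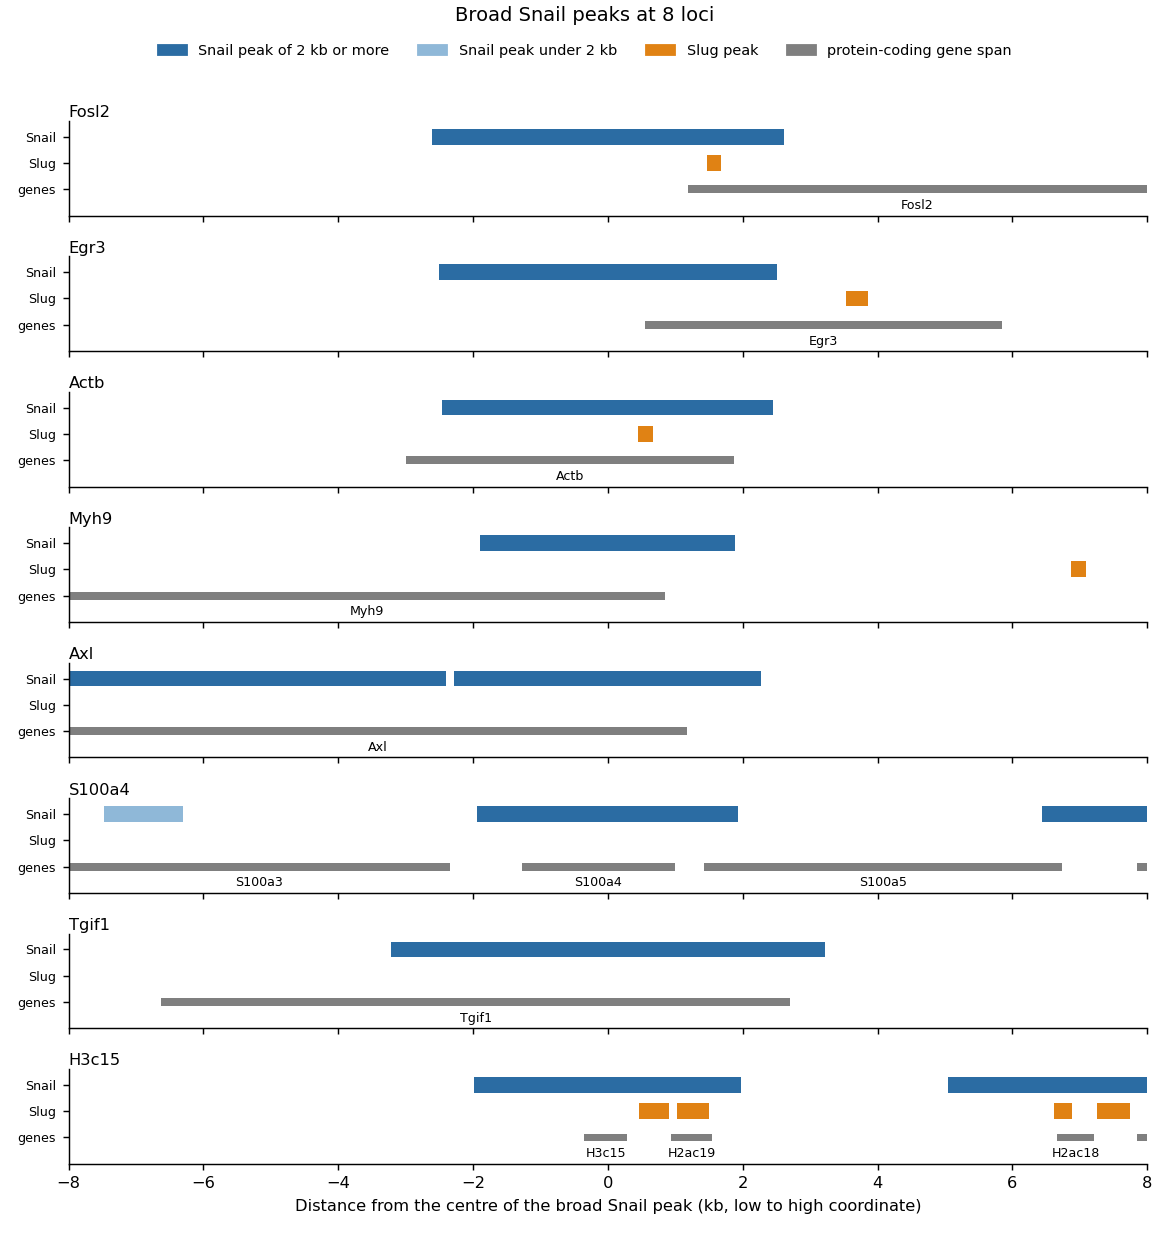
Maps of 8 loci with Snail peaks, Slug peaks and protein-coding gene spans as bars, by distance in kb from the centre of the named broad Snail peak, cut at 8 kb on each side. At Egr3, Myh9, Axl, S100a4 and Tgif1 the central broad peak contained no Slug peak, while those at Fosl2 and Actb contained 1 each and that at H3c15 contained 2.

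Genes that mark the mesenchymal state had a broad peak at 8 of 30 (26.7%, 14.2 to 44.4%), with any Snail peak at 16. Axl, a receptor tyrosine kinase linked to invasion, had broad peaks at both ends, of 4555 bp (score 192) and 3601 bp (score 1077). The second contained a Slug peak of score 291. The only gene with an annotated start in the second was the neighbour Hnrnpul1, while the start of Axl lay in the first. Next to the first, only in the body of Axl and so outside the list's count, lay another broad peak of 5845 bp (score 177). S100a4, a calcium-binding protein of motile cells, lay whole within a peak of 3874 bp (score 446). Vim had 3839 bp (score 921). Ncam1, Sparc, Fn1, Itgb1 and Cdh2, the N-cadherin gene, followed with 2045 to 2888 bp. The Fn1 peak lay wholly outside the gene, beyond its low-coordinate end, so over no start of it. The extracellular matrix list had 2 of 22 genes (9.09%), Col4a1 and Col4a2, which share a start region and 1 peak of 2274 bp (score 1038). The interval of this list, 2.53 to 27.8%, includes the 5.7% over all protein-coding genes.

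Of 21 EMT transcription factors, 4 had a broad peak (interval 7.67 to 40.0%) and 17 any Snail peak. Twist2 had a peak of 2781 bp (score 361) and Sox9 one of 2715 bp (score 644) with a Slug peak of score 83.6. Sox4 had one of 2592 bp (score 488), and Snai1 one of 2250 bp (score 547) just beyond its high-coordinate end. The Snai1 peak lay wholly outside the gene, so over no start of it. Epithelial junction genes had a broad peak at 3 of 26 (11.5%, up to 29.0%) and any Snail peak at 16. Among them were Jup, which encodes plakoglobin (3350 bp, score 689), with a Slug peak of score 78.0, and the adhesion protein Nectin2 (2261 bp, score 392), with none. Of 18 epithelial factors 0 had a broad peak, which allows up to 17.6%, and 6 had any Snail peak.

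Among signalling lists, TGF-beta and BMP genes had 4 of 27 (14.8%, 5.92 to 32.5%). This interval begins close to the 5.7% over all protein-coding genes. Tgif1, a corepressor of Smad proteins, had a peak of 6427 bp (score 207), the widest of any listed gene, and Tgfbr2, the type II receptor, one of 2751 bp (score 818). Smad3 and Bmpr2 were the others. Wnt and Notch genes had 6 of 26 (23.1%), led by the ligand Wnt5a (3573 bp, score 620) and the Wnt effector Tcf7l2 (3403 bp, score 119), with Hes1, Lef1, Jag1 and Lrp5. Hippo genes had 5 of 22 (22.7%), among them Ccn1, a target of YAP and TAZ (3285 bp, score 281), Ajuba (3233 bp, score 404) and Wwtr1, which encodes TAZ. The Tead3 peak of 2421 bp was also the second broad peak of its neighbour Rpl10a. Cell cycle genes had 6 of 24 (25%), with Cdk6 (3744 bp, score 741) and Cdk4 (3199 bp, score 532) widest, followed by E2f3, Ccnd1, Cdkn2c and Ccnd2. In the Ccnd2 peak the only gene with an annotated start was 9330179D12Rik, and in the Lrp5 peak it was Gm36672. Corepressors and chromatin genes had 5 of 22 (22.7%): Ajuba, counted here too, Gsk3b, the kinase that marks Snail for breakdown (2581 bp, score 1666), Ctbp2, Sin3a and Ezh2. In the ribosomal list the widest were at Rpl10a (3043 bp, score 260) and Rpl7 (3029 bp, score 866). Over all protein-coding genes, 84 had 2 or more broad peaks.

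Broad Snail peaks more often contained a Slug peak than narrower ones, but held fewer Slug peaks per length. A Slug peak midpoint lay in 394 of 1494 broad peaks (26.4%, 24.2 to 28.7%), against 15.4% of narrower peaks (14.9 to 15.8%). Of the broad peaks 330 held 1 Slug peak, 56 held 2, 3 held 3, 4 held 4 and 1 held 5, which made 472 Slug peaks or 1.13% of the Slug list. Per 100 kb of interval there were 11.3 Slug peaks in broad and 20.2 in narrower peaks, a ratio of 0.562. Within 1 kb around the centre of each peak a Slug midpoint was found for 12.9% of broad (11.2 to 14.6%) and 15.6% of narrower peaks (15.2 to 16.1%). That window reaches past the edges of narrower peaks under 1 kb. Among narrower peaks that hold it whole, the share was 15.03% from 1000 up to 1500 bp and 12.5% from 1500 up to 2000 bp. The density at gene ends was 10.8 per 100 kb in broad and 12.5 in narrower peaks, in gene bodies 10.9 and 25.3, and between genes 14.4 and 33.5, so the gap was smallest at gene ends. By width the density was 11.5 per 100 kb from 2000 up to 3000 bp, 12.1 from there up to 4000 bp and 9.96 at 4000 bp or more. At Snail scores of 1000 or more the densities were 17.4 and 16.4, which turned the order. All broad peaks with 4 or 5 Slug peaks fall in this class. So do most of the 25 histone peaks, whose median score was 2229 and of which 13 held 2 Slug peaks. The part of these loci in the turned order was not tested. From 300 up to 1000 the densities were 9.23 and 14.4, from 100 up to 300 10.8 and 21.9, and under 100 8.30 and 28.1.

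**Figure D4:**
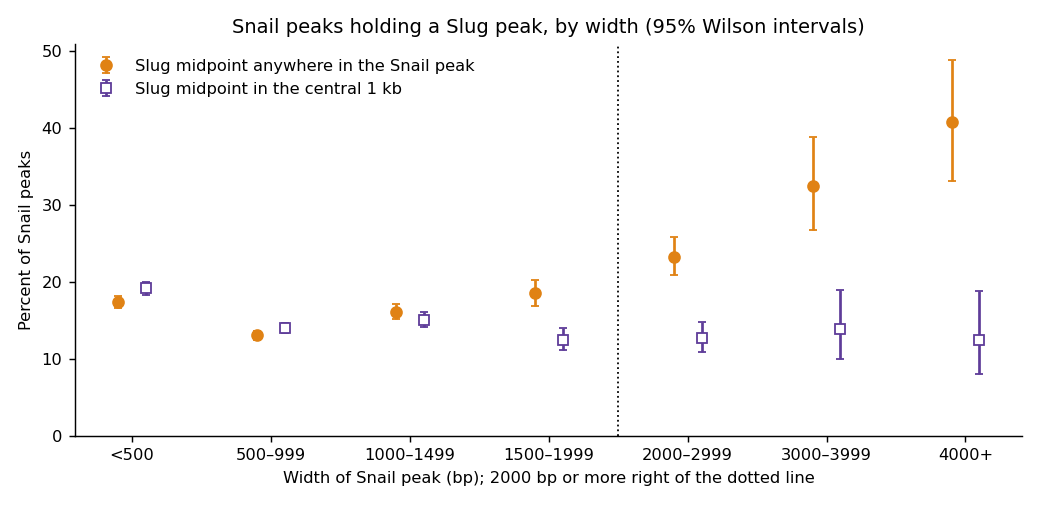
Percent of Snail peaks with a Slug midpoint anywhere in the interval (filled) or in the central 1 kb (open), with 95% Wilson intervals, in 7 width classes, narrow to wide, with broad peaks right of the dotted line. Past the line the whole-interval share was 23.3%, 32.5% and 40.7%, while the central share was 12.7%, 13.9% and 12.4%, and under 1000 bp the central window reaches outside the peak.

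Inside broad peaks the Slug peaks leaned to the centre and were fewest at the edges. The middle of the interval, from 25 to 75% of its length, held 264 of the 472 midpoints (55.9%, 51.4 to 60.3%). In 5 equal steps from the centre to the edge the counts were 116, 103, 98, 104 and 51, the last step being the lowest. The median distance from the centre was 598 bp. Within the Slug list, Slug peaks in broad Snail peaks had a median score of 87.1, those in narrower Snail peaks 106 and those outside Snail peaks 79.0. Their median widths were 271, 254 and 202 bp in that order, so Slug peaks under broad Snail peaks were themselves narrow.

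The broad peaks with most Slug peaks lay largely away from annotated protein-coding genes. A peak of 2750 bp at chr18:3004051-3006800 (score 1012), nearest to the pseudogene Vmn1r-ps151, contained 5, the highest with a Slug score of 1205. The 4 peaks with 4 Slug peaks lay at the lncRNA genes Gm40034 (2143 bp, score 1992) and Gm51701 (3379 bp, score 1685), near the pseudogene Vmn1r-ps137 (2586 bp, score 1044) and in the body of Myo3a, a myosin gene (3197 bp, score 1664). Those with 3 lay in Tmem267 and nearest to Arl4c and Smgc. Of the 23 Slug peaks with a score of 3100, 5 lay in broad Snail peaks, 17 in narrower ones and 1 in none. These 5 lay at Gm20590, Rn18s-rs5 and 2700054A10Rik and near Vmn1r-ps2 and Gm9637, and all but Gm20590 also had a Snail score of 3100. Signal in input DNA and repeat content were not analysed here, neither at these loci nor at those with most Slug peaks.

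Chromosome 19 carried more broad peaks than any other. It held 192 of the 1494 (12.9%) but 4.35% of all Snail peaks, and 15.5% of its 1235 Snail peaks were broad. On the other autosomes the share was 2.92% (chromosome 18) to 7.98% (chromosome 17), and on X it was 1.96%, 11 of 560. Among Snail peaks at gene ends, 125 of 454 on chromosome 19 were broad (27.5%), against 0.880% on X. The median width of all Snail peaks at gene ends was 1364 bp on chromosome 19, 904.5 to 1039 bp on the other autosomes and 745 bp on X. Their median score was 519 on chromosome 19 and 464 to 665 on the other autosomes, so their scores were not apart. Slug peaks were not wider there: their median width was 213 bp on chromosome 19 and 195 to 224 bp on the other autosomes.

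**Figure D5:**
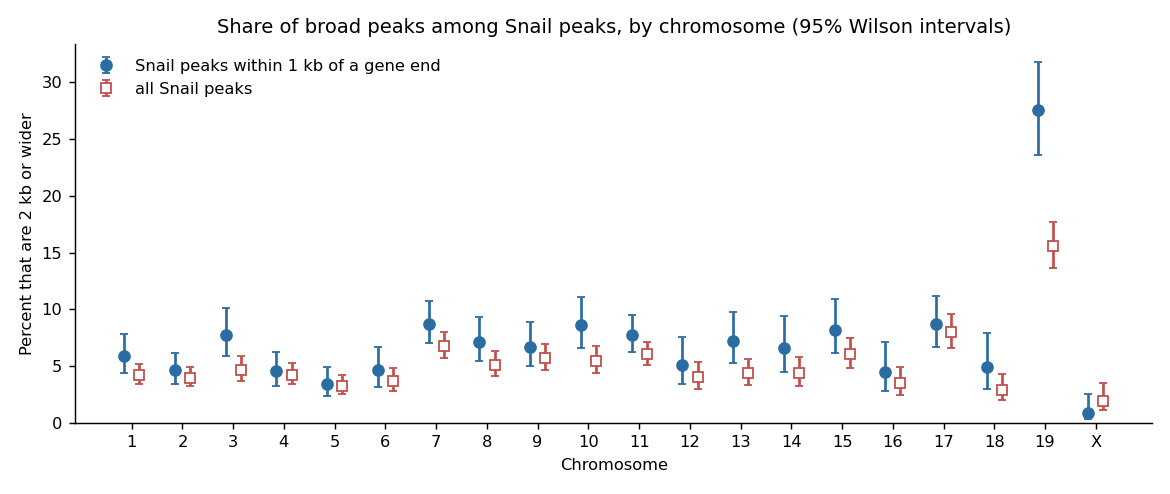
Percent of Snail peaks that were 2 kb or wider, by chromosome, with 95% Wilson intervals, among Snail peaks within 1 kb of a gene end (filled) and among all Snail peaks (open). Chromosome 19 stood apart at 27.5% and 15.5%, and X was lowest at 0.880% and 1.96%; chromosome Y, with 19 Snail peaks and none broad, is left out.

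The excess was uneven along chromosome 19. In windows of 5 Mb, 71 of 200 Snail peaks were broad at 5 to 10 Mb (35.5%), with a median width of 1958 bp at gene ends. The share was 23.5% (23 of 98) at 0 to 5 Mb, 11.4% (10 of 88) at 10 to 15 Mb, 3 of 89 at 25 to 30 Mb and 23.9% (26 of 109) at 45 to 50 Mb. The window at 5 to 10 Mb is gene-dense, with 157 protein-coding genes, while the one at 10 to 15 Mb holds 134. Off chromosome 19, 41 windows had 100 or more protein-coding genes, and their share of broad peaks ran from 0 to 20% with a median of 7.48%. The highest was the histone cluster at 20 to 25 Mb of chromosome 13. These windows were chosen by gene count, so their numbers of Snail peaks differed. The share of 0 came from 85 to 90 Mb of chromosome 2, with only 7 Snail peaks. The median width at gene ends in the 231 other windows with 20 or more such peaks was 481 to 1600 bp, all below 1958 bp. The Slug peaks at 5 to 10 Mb of chromosome 19 had a median width of 218 bp. In the first 10 Mb the widest were those at Ltbp3, Ppp1ca and Rin1, then one of 6734 bp (score 301) over Plcb3, Ppp1r14b, Fkbp2 and Vegfb. Malat1, an abundant nuclear lncRNA, had 2, of 6020 bp (score 277, 1 Slug peak) and 5230 bp (score 731, none).

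Broad peaks had other Snail peaks close by. The nearest other Snail peak was a median of 5.83 kb from a broad peak and 11.2 kb from a narrower one, and 67.5% of broad peaks had one within 10 kb, against 46.9%. Within 1 kb it was the other way round, 13.7% against 16.2%. There were 212 pairs of broad peaks within 10 kb of each other, 31 of them within 1 kb, the pair at Pfn1 among the 31.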

How the data were processed

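The Snail list and the Slug list are the peaks the authors deposited for 1 ChIP library each. Per the submitters' processing notes, Bowtie, MACS 1.4.2 and mm10 were used. Further settings: not given in the sources used here. A row holds a position and a score that the authors' peak caller gave. Its scale is not stated, so scores were compared only within a list. Starts were converted to 1-based positions. Genes came from the RefSeq table of GRCm38.p6, the assembly mm10 shares (49943 genes, 21887 protein-coding), and starts and strands from the RefSeq promoter table.

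A midpoint within 1000 bp of either gene end put a peak at a gene end. A Slug peak was contained when its midpoint lay in the Snail peak. A listed gene had a broad peak when the interval came within 1 kb of an end. Shares have 95% Wilson intervals. The interval code was tested on simulated data. Named peaks were the 10 widest, the 10 highest-scoring with ties at 3100, the 10 with most Slug peaks, the 3 on each side of the width limit and those at listed genes; others were chosen after their values were seen, namely on chromosome 19, over miRNA and snRNA genes and in the sequences. Some named items are not reported here. The members and lists were chosen with earlier results of these data known. Alternatives changed the width limit, score minimum, distance, gene set and Slug window. The software was Python 3.11.15 (scipy 1.17.1, pandas 2.3.3, numpy 2.4.6, matplotlib 3.10.9).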

Additional observations from a re-analysis of the deposited data

How the results depend on the processing

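Of 42 alternatives, 33 planned and 9 added after seeing the data, 24 stayed inside the interval of the reported value or within 1.5 times a reported count. The share of broad peaks at a gene end (58.2%) was 63.2% with a limit of 1500 bp, 50.3% with 3000 bp, 50.1% with protein-coding genes, 40.4% within 500 bp and 51.4% with transcription start sites. The share covering a gene end (64.7%) was 67.6%, 57.2% and 55.8% with 3000 bp, protein-coding genes and start sites in that order. The share containing a Slug peak (26.4%) was 21.9% with 1500 bp, 35.6% with 3000 bp, 11.8% with Slug scores of 100 or more and 12.9% in the central 1 kb. There narrower peaks had 15.6%, with a window that reaches outside those under 1 kb, so the turned order is not of like windows. Slug peaks per 100 kb fell to 4.76 with Slug scores of 100 or more, against 11.3. The median score (599) was 662 with 1500 bp, 478 with 3000 bp and 639 with Snail scores of 100 or more. Genes with a broad peak (1248) numbered 2813 with 1500 bp and 335 with 3000 bp. Start sites on chromosome 18 were not used. No paired analysis was possible because each ChIP was 1 library, and for the same reason no library could be left out. No depth, height or background of a peak is known, and a score can move with sequencing depth.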
